A study of Mus musculus with 3 samples.

Results

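The matrix metalloproteinases (MMPs), the ADAMTS proteases and the tissue inhibitors of metalloproteinases (TIMPs) were taken from the RNA-seq data of E6.5 mouse embryos by gene symbol, without use of their values. The table held 46 of them among 23421 genes, with 23 MMPs, 19 ADAMTSs and 4 TIMPs. The data comprised 3 libraries labelled with the strain 129/SvEv, 1 each of WT, tw18/+ and tw18/tw18 embryos, all collected from crosses between tw18/+ mice. The study describes its embryos as not inbred, so background may differ between libraries. In its in situ hybridizations at E6.5, it describes mutant embryos as slightly younger, so stage may differ between libraries along with genotype. The tw18 chromosome is a *t* haplotype with a large deletion that removes many genes besides *Ppp2r1a*, which encodes the scaffold subunit of the phosphatase PP2A. From a knockout and a transgene rescue, the study assigns the embryonic lethality to loss of *Ppp2r1a*. The libraries used here include neither, so that no RNA difference between them can be assigned to a single gene. RNA came from the embryo proper, epiblast with the visceral endoderm around it, although the labels name the tissue as epiblast only. The number of embryos in a library is not given in the sources used here. As 1 library stood for each genotype, no difference had a replicate check, none was tested, and the values below compare libraries.

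MMPs are zinc proteases that cut collagens and other matrix proteins, and most are made as inactive precursors. ADAMTS proteases are secreted relatives that trim procollagens or cut proteoglycans such as versican. TIMPs bind to the active site of these enzymes, and *Timp3* is the inhibitor that also binds to the matrix and acts on ADAMTS enzymes. Around implantation, these genes are known from the invading trophoblast and from the uterine decidua, and in the embryo from basement membrane remodeling.

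FPKM counts fragments relative to transcript length and to library size, so levels can be set side by side between genes. The study describes its values as normalized FPKM from Cuffdiff. A gene was called higher or lower where its FPKM, with no pseudocount, differed by a log2 ratio of 1 or more and the higher library reached an FPKM of 1. This is a threshold on size and not a test. The low values of the table gave an FPKM of 0.0729 per fragment on a transcript of 1 kb in WT, 0.0519 in tw18/+ and 0.0523 in tw18/tw18. On this scale, which includes any normalization between libraries, the depth of both tw18 libraries was close to 1.4 times that of WT (1.41 and 1.39). Fragment numbers derived from this spacing are estimates, and the 95% counting intervals (Clopper-Pearson) made from them leave out every other error, as PCR copies are not separate molecules. *Ppp2r1a* had an FPKM of 146 in WT, 81.7 in tw18/+ and 12.8 in tw18/tw18. The order followed the labels, but the gene lies inside the deletion and was not at 0 in tw18/tw18, and the source of those fragments was not tested.

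The epiblast markers were present in each library, with *Pou5f1* (Oct4) at an FPKM of 628, 721 and 274 in WT, tw18/+ and tw18/tw18. All 10 epiblast markers summed to 2165, 2332 and 1113, and all 11 visceral endoderm markers to 1280, 1243 and 1781. Markers of other tissues were present too. The 9 decidua markers summed to 1779, 269 and 749, the 9 stroma markers to 80.4, 103 and 479, and none of these was listed at 0. The 6 trophoblast giant cell markers summed to 128, 78.0 and 238 with *Prl3b1* and *Ctsq* at 0 in each library. In RNA of whole tissue, fewer cells of a type and less RNA per cell cannot be told apart.

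Of the 46 genes, 27 (58.7%) reached an FPKM of 1 in any library, against 56.0% of all genes. These were 10 of 23 MMPs, 14 of 19 ADAMTSs and 3 of 4 TIMPs. Of the other 19, 7 were listed at 0 in each library (*Mmp3*, *Mmp7*, *Mmp10*, *Mmp13*, *Mmp20*, *Mmp27* and *Adamts13*). The remaining 12 (*Mmp8*, *Mmp12*, *Mmp16*, *Mmp19*, *Mmp21*, *Mmp24*, *Mmp28*, *Adamts12*, *Adamts14*, *Adamts16*, *Adamts20* and *Timp4*) lay between 0 and 0.870. An exact 0 is given only as listed, since the table does not tell a failed estimate from an absence of fragments. Whether strand was used in counting is not given in the sources used here, so values of genes that overlap on opposite strands are uncertain.

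**Figure D1:**
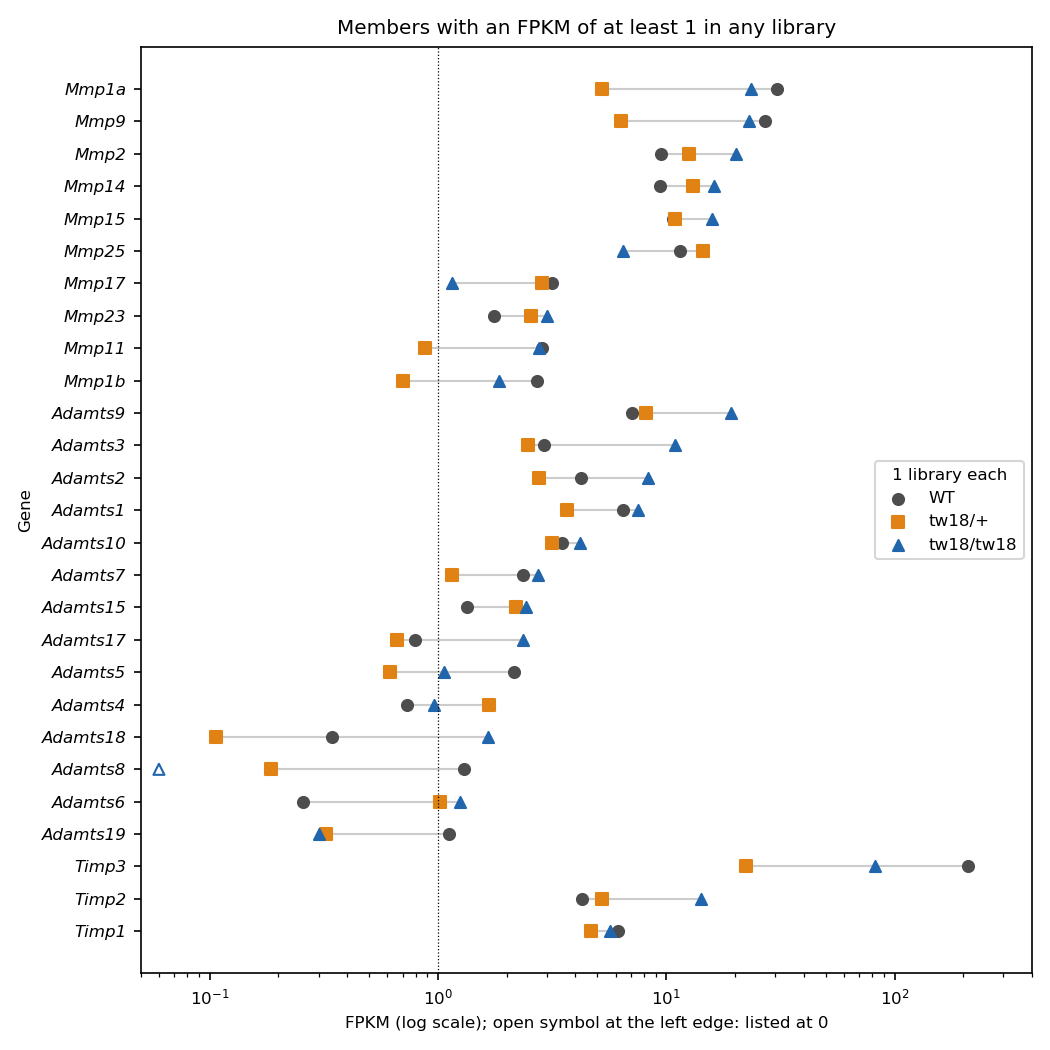
FPKM (log axis) of the 27 genes that reached an FPKM of 1 in any library; each symbol is 1 library and the dotted line marks an FPKM of 1. *Timp3* spans 22.3 to 210, while *Timp1* stays between 4.66 and 6.12.

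In all, 21 of the 46 genes (45.7%) were past the threshold in at least 1 of the 3 comparisons, against 16.8% of all genes in the table. The share lower in tw18/+ than in both other libraries was 13.0% (6 of 46), against 1.19% of all genes. These 6 were *Timp3*, *Mmp1a*, *Mmp9*, *Mmp11*, *Mmp1b* and *Adamts7*. The share higher in tw18/tw18 than in both others was 10.9% (5 of 46), against 5.54% of all genes, and held *Adamts9*, *Timp2*, *Adamts3*, *Adamts17* and *Adamts18*. None was higher in tw18/+ than in both others, where the background was 0.666%. A further 4, *Timp3* among them with *Adamts5*, *Adamts8* and *Adamts19*, were higher in WT than in both others (8.70%, against 1.1% of all genes). *Mmp17* alone was lower in tw18/tw18 than in both others (background 1.72%) and *Adamts6* alone was lower in WT than in both others (background 1.49%).

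*Timp3* had the highest level of the 46 genes in each library. It had an FPKM of 210 in WT, 22.3 in tw18/+ and 81.9 in tw18/tw18, from about 13583, 2030 and 7393 fragments. It was thus 9.41-fold lower in tw18/+ than in WT, a log2 ratio of -3.23 (95% counting interval -3.30 to -3.17). Between tw18/tw18 and WT the log2 ratio was -1.36 (-1.40 to -1.32), and between tw18/tw18 and tw18/+ it was 1.88 (1.80 to 1.95). By level it ranked 279 of all genes in WT, 3421 in tw18/+ and 735 in tw18/tw18. *Timp3* (Chr 10, 86300372 to 86349506, GRCm38) lies within *Syn3* on the opposite strand, which had an FPKM of at most 0.649. Its value dominated the family, with 95% of the summed TIMP level in WT, 68.1% in tw18/+ and 80.5% in tw18/tw18.

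The collagenase genes *Mmp1a* and *Mmp1b*, which encode enzymes that cut fibrillar collagen or closely resemble them, shared this order of libraries. *Mmp1a* had an FPKM of 30.6 in WT, 5.23 in tw18/+ and 23.6 in tw18/tw18, and *Mmp1b* of 2.72, 0.701 and 1.85. The WT and tw18/tw18 libraries were close to each other for both genes and the tw18/+ library was apart. For *Mmp1a* the log2 ratio of tw18/+ to WT was -2.55 (95% counting interval -2.77 to -2.32), and that of tw18/tw18 to WT was -0.37 (-0.51 to -0.24). For *Mmp1b*, with about 54, 20 and 51 fragments, the ratio of tw18/+ to WT was -1.96 (-2.74 to -1.16), and the interval of tw18/tw18 against WT ran from -1.14 to 0.02. The genes are paralogs, and 11.8% of the 50 bp words of *Mmp1b* transcripts also occur in *Mmp1a*, so that fragments could have been split between them.

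Both belong to a cluster of 10 *Mmp* genes on Chr 9 (7272514 to 7699585, GRCm38), a span of 427 kb. Within it only *Mmp1a* and *Mmp1b* reached an FPKM of 1 in any library. Of their neighbors, 6 were listed at 0 in each library, while *Mmp8* (0.361, about 17 fragments) and *Mmp12* (0.0434, about 3 fragments) were above 0 in tw18/tw18 only. *Mmp3*, which starts 18.3 kb before *Mmp1a*, was among those at 0.

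**Figure D2:**
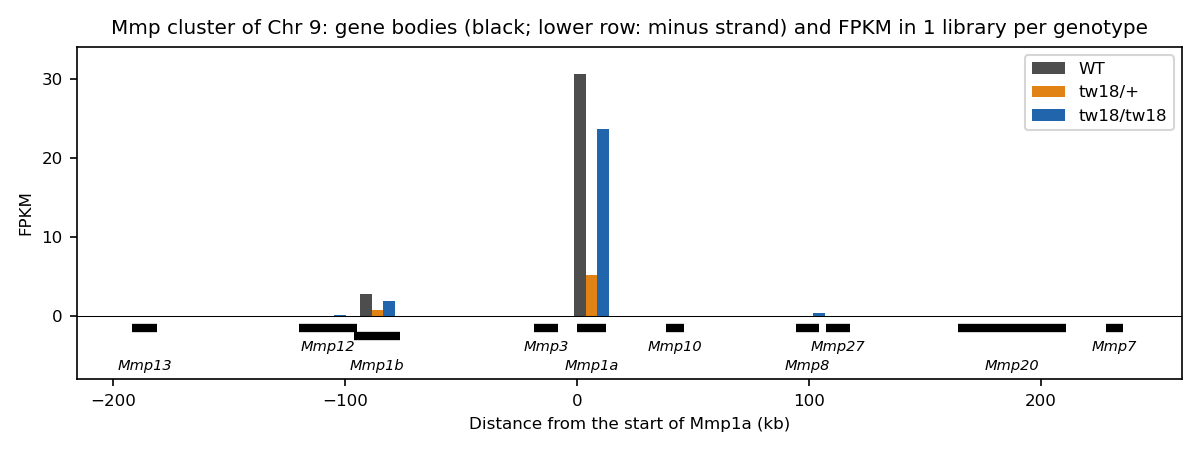
FPKM in each library (bars) and gene bodies (black) of the Chr 9 cluster, by distance from the start of *Mmp1a* in kb. Bars stand out at *Mmp1a* (30.6 in WT) and *Mmp1b* (2.72 in WT), and 6 of the 10 genes have none.

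RefSeq promoter windows of GRCm38.p6, 250 bases before to 50 after the annotated start, were matched by symbol for 32 of the 46 genes in 35 windows. The bases before the start are shown for *Mmp1a* and *Mmp1b*, which are paralogs with the same order of libraries, for *Timp3*, which shared that order, and for *Adamts2*, which was highest in tw18/tw18. Bases that either annotation places inside the gene were left out. The capitals mark the AP-1 motif TGANTCA, which the reverse strand reads the same, the TATA motif TATAAA and the ETS motif AGGAAG, the last 2 searched on both strands.
Mmp1a, chr9:7463991-7464140, plus strand: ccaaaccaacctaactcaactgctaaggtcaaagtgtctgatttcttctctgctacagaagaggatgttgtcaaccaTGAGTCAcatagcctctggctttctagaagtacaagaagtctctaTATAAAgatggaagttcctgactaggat
Mmp1b, chr9:7388048-7388176, minus strand: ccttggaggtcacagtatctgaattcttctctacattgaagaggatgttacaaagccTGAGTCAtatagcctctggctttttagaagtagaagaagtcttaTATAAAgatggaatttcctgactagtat
Timp3, chr10:86300262-86300371, plus strand: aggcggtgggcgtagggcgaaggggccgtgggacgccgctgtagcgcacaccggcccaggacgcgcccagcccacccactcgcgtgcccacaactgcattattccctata
Adamts2, chr11:50601935-50602083, plus strand: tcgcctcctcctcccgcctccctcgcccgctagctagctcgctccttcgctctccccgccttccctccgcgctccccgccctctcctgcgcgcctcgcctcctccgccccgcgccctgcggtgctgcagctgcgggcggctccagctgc

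The *Mmp1a* and *Mmp1b* windows were 86.8% identical over 281 aligned positions and carried the AP-1 motif from -73 to -67 and from -93 to -87 relative to the start. They had no CG dinucleotide, against a median of 7 over all 32851 windows, while the *Timp3* window had 24. TGANTCA occurred in 7.81% of all windows and in 8 of the 35 windows of these families. All 8 belonged to the Chr 9 cluster, and they included their neighbors at 0, *Mmp3*, *Mmp7*, *Mmp10*, *Mmp13* and *Mmp20*, besides *Mmp12*, *Mmp1a* and *Mmp1b*. TATAAA occurred in 13.6% of all windows and in 11 of the 35, and AGGAAG in 35.4% and in 16. The *Timp3* window held neither TGANTCA nor TATAAA. A match of letters is a description and not a binding site, and the motif was present at genes with and without a measured level.

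The gelatinases cleave denatured and basement membrane collagen. *Mmp9* had an FPKM of 27.0 in WT, 6.31 in tw18/+ and 23.1 in tw18/tw18, from about 1176, 386 and 1401 fragments. It was low in the tw18/+ library alone, by a log2 ratio of -2.10 (95% counting interval -2.27 to -1.93) against WT, while tw18/tw18 differed from WT by -0.23 (-0.34 to -0.11). *Mmp2* had another order, with an FPKM of 9.50, 12.6 and 20.2 in WT, tw18/+ and tw18/tw18. Its log2 ratio of tw18/tw18 to WT was 1.09 (0.92 to 1.25). *Mmp11* (stromelysin 3), an MMP that is activated by furin inside the cell, had an FPKM of 2.87, 0.877 and 2.76 and was 3.27-fold lower in tw18/+ than in WT. It overlaps *Chchd10* on the opposite strand, which had an FPKM of 29.5 to 43.2 with its highest value in tw18/+.

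*Mmp14* encodes the membrane-type MMP that activates pro-MMP2 together with TIMP2. It had an FPKM of 9.40 in WT, 13.1 in tw18/+ and 16.2 in tw18/tw18, the same order as *Mmp2*, and its log2 ratio of tw18/tw18 to WT of 0.79 (0.62 to 0.96) was under the threshold. *Mmp15*, another transmembrane type, had an FPKM of 10.7, 11.0 and 15.9. The anchored types *Mmp17* and *Mmp25*, which are linked to the membrane by a lipid, were lowest in tw18/tw18. So was *Mmp16*, also of the transmembrane type, with an FPKM of 0.870, 0.861 and 0.137, under 1 in each library. *Mmp17* had an FPKM of 3.15, 2.85 and 1.15, with a log2 ratio of -1.46 (-1.76 to -1.16) between tw18/tw18 and WT. *Mmp25* had an FPKM of 11.4, 14.5 and 6.45, with a log2 ratio of -0.83 against WT and -1.17 against tw18/+, which was -0.92 after rescaling to equal sums. *Mmp25* (Chr 17, 23628311 to 23645277) starts 2.66 Mb distal to *Ppp2r1a*, close to the distal breakpoint of the deletion as mapped in the study, and *Adamts10* starts 12.6 Mb distal. These were the only members on the chromosome that carries tw18. *Mmp23* rounded off the expressed MMPs with an FPKM of 1.77, 2.57 and 3.02. Summed over the 6 membrane-type genes, the level was 35.6, 42.2 and 40.0, a far smaller spread than the 33.3, 5.93 and 25.8 of the 4 collagenase genes.

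The procollagen N-proteinases cut the amino-terminal propeptide from fibrillar procollagens. *Adamts3* had an FPKM of 2.92 in WT, 2.48 in tw18/+ and 10.9 in tw18/tw18, from about 158, 188 and 822 fragments. WT and tw18/+ were close to each other and tw18/tw18 was 3.74-fold above WT, a log2 ratio of 1.90 (95% counting interval 1.65 to 2.15). *Adamts2* had an FPKM of 4.25, 2.77 and 8.31, with a log2 ratio of tw18/tw18 to WT of 0.97 (0.80 to 1.13), just under the threshold, and of 1.59 to tw18/+. The third gene of this group, *Adamts14*, stayed under an FPKM of 0.3 in each library (0.237, 0.160 and 0.292).

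Among the proteoglycanases, which cut versican and aggrecan, *Adamts9* was the most abundant. Its FPKM was 7.09 in WT, 8.13 in tw18/+ and 19.3 in tw18/tw18, and the log2 ratio was 1.44 (1.33 to 1.56) between tw18/tw18 and WT. *Adamts1* had an FPKM of 6.45, 3.67 and 7.51, low in tw18/+, with a log2 ratio of -0.81 against WT. *Adamts15* had an FPKM of 1.34, 2.2 and 2.43 and was past the threshold in no comparison. *Adamts4*, an aggrecanase, stood at 0.729, 1.67 and 0.966, and its log2 ratio of tw18/+ to WT was 1.19 (0.69 to 1.71). *Adamts5*, the other main aggrecanase, was highest in WT with an FPKM of 2.14, 0.614 and 1.07. Its log2 ratio of tw18/tw18 to WT, -1.01 (-1.26 to -0.75), was at the threshold and came to -0.79 after rescaling to equal sums. *Adamts8*, its relative, had 1.30 in WT (about 65 fragments), 0.186 in tw18/+ (about 13) and a listed 0 in tw18/tw18.

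Members with other or less settled substrates included *Adamts17* and *Adamts18*, both highest in tw18/tw18. *Adamts17* had an FPKM of 0.793 in WT, 0.662 in tw18/+ and 2.37 in tw18/tw18, and *Adamts18* of 0.343, 0.107 and 1.66. The tw18/+ value of *Adamts18* came from about 12 fragments, so its log2 ratio of 3.96 between tw18/tw18 and tw18/+ had an interval of 3.08 to 4.90. *Adamts6* was lowest in WT, with an FPKM of 0.255, 1.02 and 1.24 and log2 ratios of 2.28 (1.63 to 2.96) for tw18/tw18 and 2.0 (1.34 to 2.69) for tw18/+. *Adamts19* was highest in WT, with an FPKM of 1.12, 0.322 and 0.302. *Adamts7*, which cuts cartilage oligomeric matrix protein, had an FPKM of 2.36, 1.15 and 2.73, with a log2 ratio of -1.03 (-1.38 to -0.68) in tw18/+ against WT. *Adamts10*, a gene of fibrillin microfibrils, varied little, with 3.50, 3.16 and 4.19.

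*Timp1* and *Timp2* spanned narrower ranges than *Timp3*. *Timp2* had an FPKM of 4.26 in WT, 5.24 in tw18/+ and 14.2 in tw18/tw18, a log2 ratio of 1.74 (1.52 to 1.95) between tw18/tw18 and WT. *Timp1* had the smallest spread of the 18 genes that reached an FPKM of 1 in each library, with 6.12, 4.66 and 5.68, a 1.31-fold range. *Timp4* had 0.716 and 0.549 in WT and tw18/+ and was listed at 0 in tw18/tw18.

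**Figure D3:**
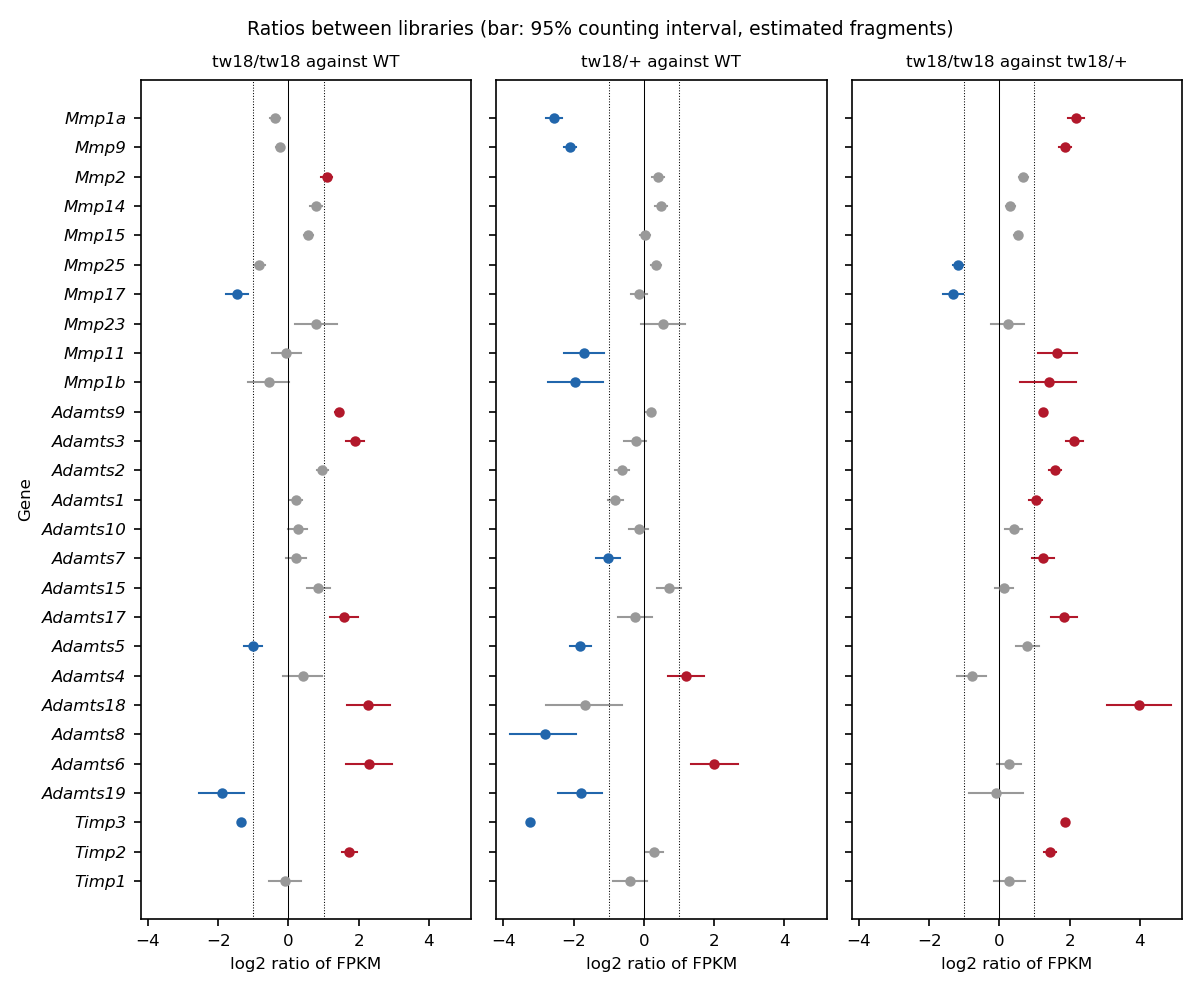
Log2 ratios of FPKM for the 27 expressed genes in the 3 comparisons, with the 95% counting interval from estimated fragments as bars; red and blue points are past the threshold and ratios with a library at 0 are left out. *Timp3* has the lowest ratio of tw18/+ to WT (-3.23), and the comparisons share libraries.

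Between tw18/tw18 and WT, 7 of the 46 genes (15.2%) were higher, against 8.31% of all genes and 15.1% of those that reached an FPKM of 1 in either library. These 7 were *Adamts3*, *Adamts6*, *Adamts9*, *Adamts17*, *Adamts18*, *Mmp2* and *Timp2*, hence 5 of 19 ADAMTSs but 1 of 23 MMPs. Another 5 (10.9%) were lower, against 3.83% and 6.94%, namely *Adamts5*, *Adamts8*, *Adamts19*, *Mmp17* and *Timp3*. Between tw18/+ and WT, 9 genes (19.6%) were lower, against 2.66% of all genes and 5.02% of those reaching an FPKM of 1, and 2 (4.35%), *Adamts4* and *Adamts6*, were higher, against 2.49% and 4.7%. Between tw18/tw18 and tw18/+, 13 genes (28.3%) were higher, against 8.16% and 14.9%, and 2 (4.35%), *Mmp17* and *Mmp25*, were lower, against 3.1% and 5.65%. The second share of each pair is over genes that reached an FPKM of 1, as 26 of the 46 did in the comparison of tw18/tw18 with WT and 25 in each of the others. The percentages of the 46 genes are to be read against the first. The median difference of log2(FPKM + 1) over all 46 genes, those at 0 included, was 0.06 for tw18/tw18 against WT, 0 for tw18/+ against WT and 0.22 for tw18/tw18 against tw18/+. Over all genes of the table each of these medians was 0. Sums of FPKM were lower in tw18/tw18 than in WT, and rescaling to equal sums would add 0.21 to every log2 ratio of tw18/tw18 to WT and 0.25 to every ratio to tw18/+.

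The summed FPKM of the 23 MMPs was 110 in WT, 70.6 in tw18/+ and 115 in tw18/tw18. For the 19 ADAMTSs it was 35.0, 29.0 and 64.5, a log2 ratio of 0.88 between tw18/tw18 and WT. For the 4 TIMPs it was 221, 32.8 and 102, and 11.1, 10.5 and 19.9 without *Timp3*. The ratio of the TIMP sum to the sum of MMPs and ADAMTSs was 1.52 in WT, 0.329 in tw18/+ and 0.566 in tw18/tw18. Without *Timp3* it was 0.0765, 0.105 and 0.111, so its order between the libraries rested on that gene. These are ratios of RNA levels and not of proteins.

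**Figure D4:**
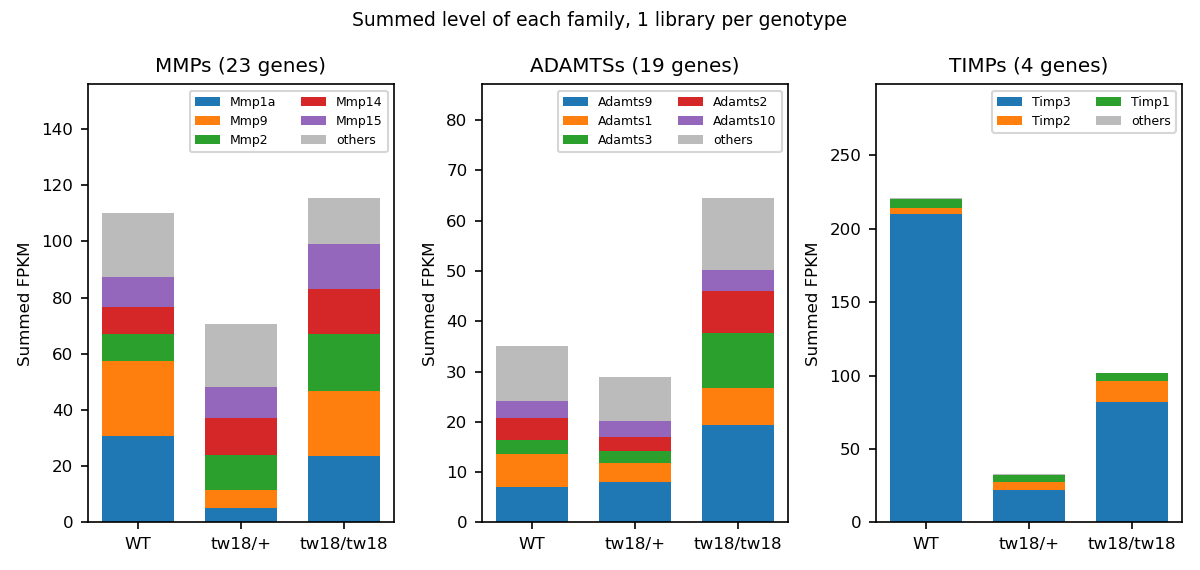
Summed FPKM of each family in 1 library per genotype (bars from 0), with the most abundant genes as colored segments. The TIMP bar is 221 in WT and 32.8 in tw18/+, mostly *Timp3*, and the ADAMTS bar is highest in tw18/tw18 (64.5).

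*Prl8a2*, a prolactin family gene of the decidua, had an FPKM of 1504 in WT, 155 in tw18/+ and 377 in tw18/tw18, a log2 ratio of -3.28 for tw18/+ against WT, beside -3.23 for *Timp3*. *Prl3c1* had 121, 13.2 and 25.2, a log2 ratio of -3.20. The other 7 decidua markers all had higher values in tw18/tw18 than in WT, 6 of them past the threshold, against 8.31% of all genes. They summed to 154, 100 and 347, so the list did not move as 1 group. Of the 4 trophoblast giant cell markers above 0, *Prl3d1* (113, 61.5 and 202) and *Prl2c2* (1.74, 0.131 and 0.396) were lowest in tw18/+, while *Hand1* (9.31, 14.0 and 34.6) was lowest in WT and *Prl4a1* (3.65, 2.37 and 0.735) in tw18/tw18. The 10 immune markers summed to 26.9, 13.9 and 42.7. The part of these tissues in the levels of *Timp3*, *Mmp1a* and *Mmp9* was not tested.

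The marker lists were chosen with earlier results of these data known. Over all genes, 8.31% were higher in tw18/tw18 than in WT and 3.83% were lower. Of 9 stroma markers, 7 were higher in tw18/tw18 than in WT and none was lower, with a median difference of log2(FPKM + 1) of 2.0. For 10 endothelium markers, 6 were higher and none lower, and the list summed to 62.0, 50.4 and 124. Of 8 parietal endoderm markers 6 were higher, and of 7 extra-embryonic ectoderm markers 6, with none lower in either list. Of 6 smooth muscle markers 3 were higher and 2, *Cnn1* (1.68, 2.35 and 0.446) and *Actg2* (1.49, 0.118 and 0), were lower. Lower too were 5 of 10 epiblast and 6 of 9 primitive streak markers, and none of these was higher. Among the 6 was *Wnt3*, at a log2 ratio of -1.02, which the study describes as not significantly changed. In tw18/+ the stroma list had a median of -0.10 against WT. The part of these cell types in the levels of *Adamts3*, *Adamts9*, *Mmp2* and *Timp2* was not tested.

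**Figure D5:**
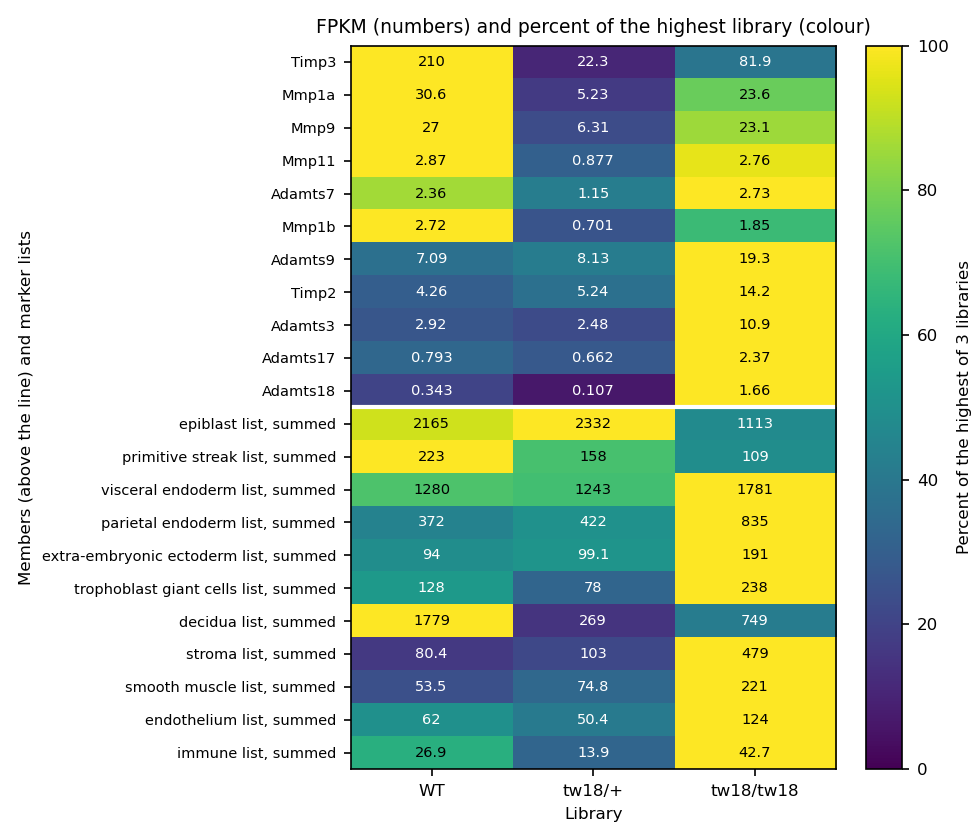
FPKM (numbers) and percent of the highest of the 3 libraries (color) for the 6 genes low in tw18/+, the 5 genes high in tw18/tw18 and the summed marker lists. *Timp3* and the decidua list are both lowest in tw18/+ (22.3 and 269), and the stroma list is highest in tw18/tw18 (479). The decidua sum is mostly *Prl8a2* in WT (1504 of 1779). Without *Prl8a2* and *Prl3c1* it is 154, 100 and 347 in WT, tw18/+ and tw18/tw18.

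Genes that act with these proteases were counted from lists of known roles, chosen with earlier results of these data known. Plasmin, the product of plasminogen activation, can activate pro-MMPs. Of 8 genes of this activation and its inhibition, 3 were higher in tw18/tw18 than in WT, against 8.31% of all genes. None was lower. The urokinase gene *Plau* had an FPKM of 0.525, 0.221 and 2.11 and its receptor gene *Plaur* 3.16, 3.19 and 7.06. The third was the plasmin inhibitor gene *Serpinf2*, with 1.02, 4.19 and 2.83 and thus highest in tw18/+. The plasminogen gene *Plg* had 0.447, 0.132 and 0.265, under 1 in each library. Of 12 other activators and inhibitors, 4 were higher, against the same 8.31%, and 1, *Pcsk6*, was lower, against 3.83%. *A2m*, which encodes the protease trap alpha-2-macroglobulin, had an FPKM of 40.8, 36.0 and 166, and *Lrp1*, an endocytic receptor that clears proteases and inhibitors, 9.12, 11.3 and 25.5. *Pcsk5*, a convertase related to furin, was low in tw18/+ alone with 22.2, 6.58 and 25.5. *Furin* itself lay between 15.5 and 24.4, and the membrane-anchored inhibitor *Reck* had 5.01, 7.22 and 6.34.

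The substrate list was chosen in the same way. Of 16 substrate genes, 8 were higher in tw18/tw18 than in WT, against 8.31% of all genes, and none was lower. *Vcan* (versican), a substrate of *Adamts1* and *Adamts9* products, had an FPKM of 5.11 in WT, 6.15 in tw18/+ and 27.9 in tw18/tw18. *Col1a1* and *Col3a1*, fibrillar collagens whose precursors the N-proteinases cut, had 35.9, 32.0 and 174, and 5.44, 5.58 and 31.9. *Fbn1* (fibrillin) had 1.69, 2.43 and 13.0. *Acan* (aggrecan) was low, with 0.601, 1.33 and 0.184. Between tw18/+ and WT, 2 of the 16 were higher and 1 was lower, against 2.49% and 2.66% of all genes. The substrate and stroma lists share *Col1a1*, *Col1a2*, *Col3a1* and *Dcn*.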

How the data were processed

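Total RNA of E6.5 embryos was sequenced as 50 bp paired-end reads from TotalScript libraries, 1 per genotype. Alignment to mm10 (GRCm38) was done by the authors with TopHat, and they deposited 1 FPKM value per gene symbol and library, as computed by Cuffdiff. The submitters' processing notes name Bowtie 1.0.0 and Cufflinks 2.2.1, and the gene annotation is not given in the sources used here. Groups came from the genotype labels. Members were taken by gene symbol, and the related-gene and marker lists were chosen with earlier results of these data known.

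Python 3.11.15 was used, with scipy 1.17.1 for intervals, pandas 2.3.3 and numpy 2.4.6 for tables and matplotlib 3.10.9 for plots. Every member with an FPKM of at least 1 in any library was named with its 3 values. Single-transcript genes of GENCODE M21 gave the depth, from 137 to 222 low values per library, of which 84.7% to 85.7% lay within 0.2 of a whole fragment. Fragment numbers used the longest coding transcript. The call rule and the depth estimate were checked on simulated data. The alternatives were pseudocounts of 0.1 and 1, no filter or an FPKM of at least 5, centring, rescaling and sums without the most abundant gene.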

Additional observations from a re-analysis of the deposited data

How the results depend on the processing

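No paired analysis was possible because each genotype had 1 library, and none could be left out. Of 75 recomputed counts, medians and sums, 56 stayed close to the reported value, 18 moved further and 1 reversed. Close means within 1.5 times for a count, and for a log2 median or sum a shift that amounts to less than 1.5-fold. By that measure the medians over the 46 genes stayed close, although over the genes that reached an FPKM of 1 they were 0.19, -0.17 and 0.64, and with a pseudocount of 0.1 they were 0.22, 0 and 0.53. With a pseudocount of 1, which damps low genes, 4 genes were higher and 2 lower in tw18/tw18 against WT, 0 higher and 5 lower in tw18/+ against WT, and 1 lower in tw18/tw18 against tw18/+. Without a filter, 15 genes were higher in tw18/tw18 against WT, 7 higher in tw18/+ against WT and 6 lower in tw18/tw18 against tw18/+. With an FPKM of at least 5, the numbers were 4 higher and 1 lower, 0 higher and 3 lower, and 8 higher and 1 lower in the same 3 comparisons, fewer because fewer genes qualify. After rescaling to equal sums, 1 gene was higher in tw18/+ against WT and 1 lower in tw18/tw18 against tw18/+, where *Mmp25* came to -0.92. Without *Timp3*, the log2 ratio of the TIMP sum reversed to 0.84 for tw18/tw18 against WT and was -0.086 for tw18/+ against WT and 0.93 for tw18/tw18 against tw18/+.

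Of 38 ratios of single genes past the threshold, each kept its direction. Those that fell under the threshold numbered 16 of 37 with a pseudocount of 1, 2 with 0.1, 2 after rescaling and 1 after centring. *Adamts5* in tw18/tw18 against WT fell under it in each of these. Rescaling turned the sign of ratios near 0 for *Mmp11* and *Timp1* in tw18/tw18 against WT, *Mmp15* in tw18/+ against WT and *Adamts19* in tw18/tw18 against tw18/+. Depth limits the genes under an FPKM of 1 most, several with under 20 fragments.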

Other observations

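Relatives of these proteases outside the 3 families were counted from the same lists. Of 9 ADAM proteases, membrane-anchored relatives of the ADAMTSs, *Adam12* and *Adam15* were higher in tw18/tw18 than in both other libraries, against 5.54% of all genes. They had an FPKM of 2.83, 2.28 and 13.1 and of 3.93, 6.67 and 13.8 in WT, tw18/+ and tw18/tw18. *Adam19* (46.0, 16.7 and 60.2) and *Adam8* (3.44, 1.47 and 5.28) were low in tw18/+ alone, against 1.19% of all genes. The sheddases *Adam10* and *Adam17* stayed between 9.37 and 18.4. Of 5 astacin proteases, *Bmp1*, which cuts the carboxy-terminal propeptide of fibrillar procollagens, was low in tw18/+ with 8.85, 3.84 and 13.0, against the same 1.19%. *Tll2*, *Mep1a* and *Mep1b* were listed at 0 in each library. The 6 ADAMTS-like genes, which lack the protease domain, summed to 0.676, 1.04 and 3.63. Only *Adamtsl5* reached an FPKM of 1 in any library (1.79 in tw18/tw18), against 56.0% of all genes. Each value is from 1 library, without a test.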
